A study of Homo sapiens with 32 samples.

Results

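The TRIM (tripartite motif) genes encode proteins that join a RING domain, 1 or more B-box domains and a coiled coil. Most are ubiquitin or SUMO ligases, and the domain at their C-terminal end, often a SPRY domain, selects what they bind. In B cells and other immune cells many act in defence against viruses, several are switched on by interferon, and TRIM28 and its relatives act on chromatin. All transcript clusters (the probes that the array assigns to 1 gene) with a single platform symbol of TRIM followed by digits were taken, with the brightest cluster of a gene that had several. This gave 46 members, from 47 such clusters among 21788 in all. 1 of them, TRIM67-AS1, is an antisense gene that the pattern of the name catches. Another 12 clusters carry a TRIM symbol together with other symbols and were not used, so that TRIM5 and some other well-known members are not analysed here.

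The arrays measured nascent and total RNA of 7 B-lymphoblastoid lines of the HapMap collection, which are B cells immortalised with Epstein-Barr virus, each line from 1 donor. All 13 cultures received 200 µM of the uridine analogue 4-thiouridine for 2 h. RNA that took up the label was separated as nascent RNA, and it was hybridised beside the total RNA of the same culture. GM12813, GM10835 and GM07029 had 3 independent cultures each. There was a single culture of GM12812, of GM12814, of GM12815 and of GM07019. Every GM12813 culture was hybridised a second time in both fractions, which makes 32 arrays, and no unlabelled culture was analysed here. The series used the nascent/total ratio to read how stable each mRNA is.

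Array medians ran from 7.58 to 7.92 in nascent RNA and from 6.74 to 6.95 in total RNA on the log2 scale. A nascent/total ratio is therefore given as the log2 difference of both fractions relative to the median cluster of the same culture: a value of 1 means 2-fold more nascent RNA per total RNA than in that cluster. Background was set at 6.40, from the means of 216 olfactory receptor clusters over all arrays. The same value served both fractions, and no separate background was set for the brighter nascent arrays. The B cell label was borne out by 10 of 10 measured B cell markers above background, while 11 of 14 T and NK cell markers and 7 of 8 monocyte and granulocyte markers stayed below it in total RNA of all 7 lines. Of 11 fibroblast and epithelial markers, 6 passed the filter, with KRT8 at a mean of 11.10 in nascent RNA and 10.35 in total RNA. Over all clusters, the nascent array of GM12815 had the lowest mean correlation with nascent arrays of other lines, 0.919, within a range up to 0.958. Total arrays of GM10835 were the least like those of other lines, with correlations of 0.916 to 0.920. The first total array of GM12813 replicate 3 followed at 0.921, against 0.944 for its technical duplicate. Its mean correlation with its own line, 0.960, was the lowest among total arrays of lines with several arrays.

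Of the 46 members, 34 lay above background in their mean over all arrays and were tested. The other 12 were TRIM7, TRIM9, TRIM10, TRIM29, TRIM36, TRIM40, TRIM42, TRIM45, TRIM55, TRIM60, TRIM63 and TRIM67-AS1. Their means over lines reached 6.74 in nascent RNA and 6.19 in total RNA. TRIM63 and TRIM55, ligases of muscle sarcomeres, and TRIM36 and TRIM9, which bind microtubules, were among them. 6 of the 34 had mean total RNA below background and passed through their nascent RNA: TRIM4, TRIM15, TRIM54, TRIM67, TRIM31 and TRIM2. TRIM62 was close to this, with mean total RNA of 6.43 and 3 of 7 lines below background. Counts over the 34 are descriptions for this reason and not support for a shift of the family. The array's cluster values do not allow the level of 1 gene to be set against that of another, so only differences within a gene are given.

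Over 7 lines, 15 of the 34 TRIM members (44.1%) had a higher nascent/total ratio than the median cluster and 5 (14.7%) a lower one, while 14 passed in neither direction. Among all 14167 clusters tested, 31.7% were higher and 31.7% lower, 63.5% together, against 20 of 34 members (58.8%). The calls are limma's, with Benjamini-Hochberg adjusted p under 0.05 over all clusters. The median ratio of the members was 0.16 with quartiles at -0.11 and 0.45, against a median of -0.01 with quartiles at -0.35 and 0.39 for all clusters. TRIM4 and TRIM26 were at least 2-fold higher, and TRIM22 was at least 2-fold lower. Of the 15 higher members, 12 had the same sign in all 7 lines, and so had all 5 lower members. The shares of all clusters past 2-fold or with the same sign in all lines were not counted.

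**Figure D1:**
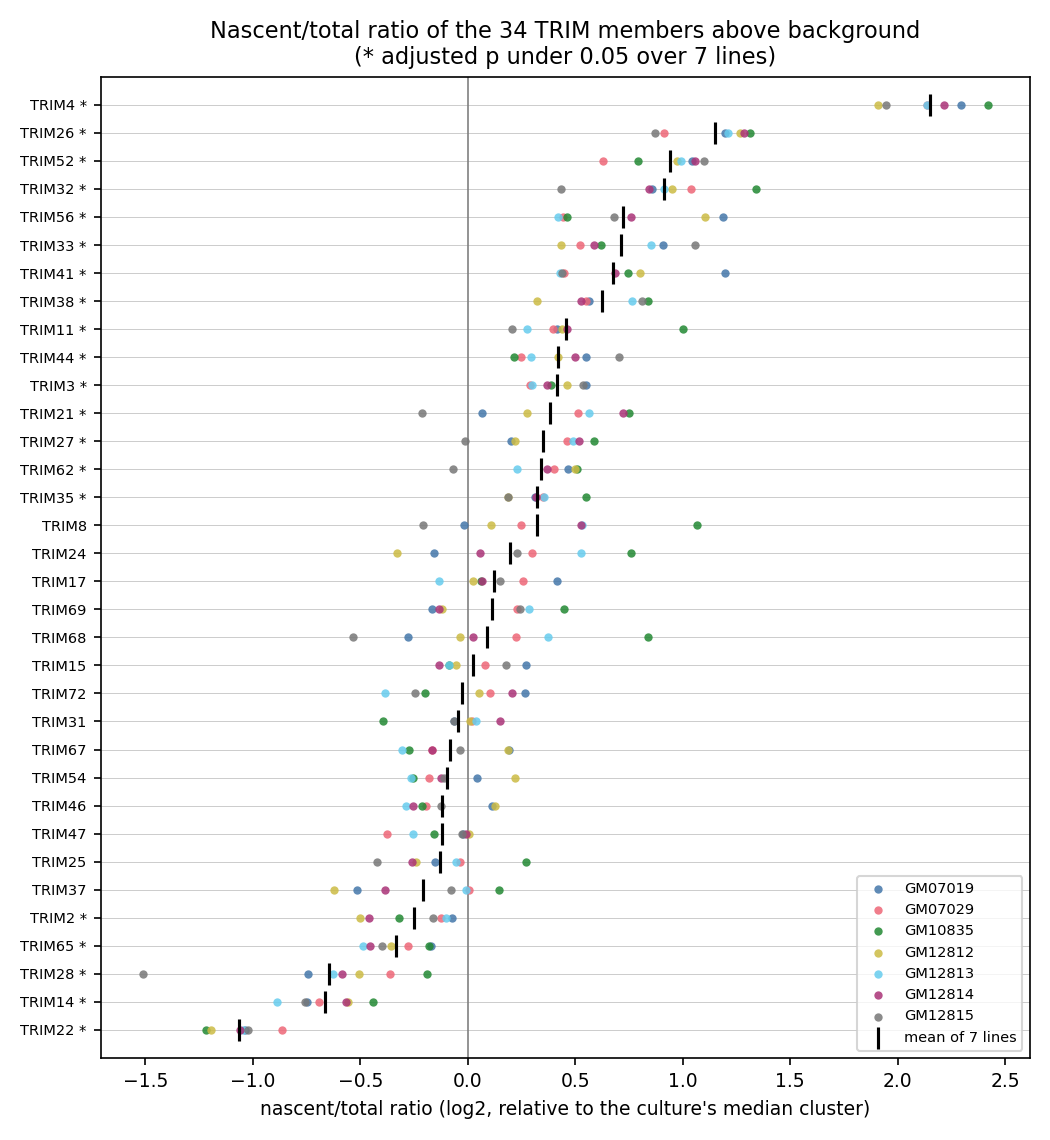
Nascent/total ratio (x axis, log2, relative to the culture's median cluster) of the 34 TRIM members above background (rows, from the highest to the lowest mean), with 1 point per line, a black bar for the mean of 7 lines and an asterisk for an adjusted p under 0.05. TRIM4 lies apart at the top with a mean of 2.15, TRIM22 stands at the bottom with -1.06, and GM10835 (green) is often the rightmost point.

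**Figure D2:**
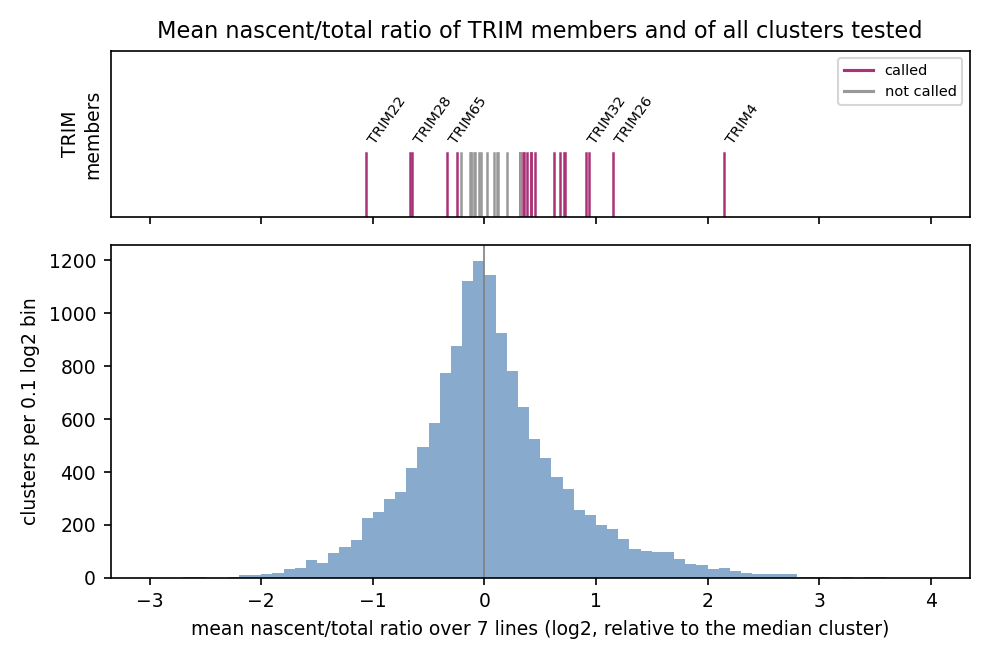
Mean nascent/total ratio over 7 lines (x axis, log2): the upper panel has 1 line per TRIM member, purple where it was called and grey where it was not, and the lower panel is a histogram of all 14167 clusters tested in bins of 0.1. The members span from -1.06 to 2.15, with most between -0.4 and 1.

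TRIM4, a ligase reported to act on the RNA sensor RIG-I, had the highest ratio of the family. Its nascent RNA had a lowest, median and highest line of 8.58, 9.03 and 9.36, and its total RNA of 5.99, 6.06 and 6.31. Total RNA was thus below background in all 7 lines while nascent RNA was well above it in every line. The measured ratio was 2.15 ± 0.18 (SD, n = 7 lines; limma adjusted p = 4.83e-07) with 1.91 in GM12812 as the lowest and 2.42 in GM10835 as the highest line. With total RNA set to the background where it fell below it, the ratio was 1.85, so that TRIM4 was at least 3.61-fold above the median cluster.

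TRIM26, a ligase of antiviral signalling encoded within the major histocompatibility complex, came second. Its nascent RNA lay at 9.68, 10.08 and 10.46 (lowest, median and highest line) and its total RNA at 7.91, 8.16 and 8.31. The ratio was 1.15 ± 0.18 (SD, n = 7 lines; limma adjusted p = 1.25e-06), or 2.22-fold, and positive in every line, from 0.87 in GM12815 to 1.31 in GM10835. Its neighbour TRIM15, with no protein-coding gene between them on chromosome 6, had a ratio of 0.02 and was not called. Total RNA of TRIM15 was below background in all 7 lines, and with it set to the background the ratio was -0.17. The size of its ratio can therefore not be read against that of TRIM26.

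TRIM52, a RING and B-box protein without a SPRY domain, followed at 0.94 ± 0.17 (SD, n = 7 lines; limma adjusted p = 3.09e-06). Nascent RNA was 8.75, 9.01 and 9.33 and total RNA 7.18, 7.27 and 7.64 in the lowest, median and highest line. It is the only member with a second cluster of its own symbol, and that cluster also passed with a smaller ratio of 0.44 ± 0.35 (SD, n = 7 lines; limma adjusted p = 0.00603), with lines from -0.16 to 1.01. TRIM41, a ligase separated from TRIM52 by 1 protein-coding gene on chromosome 5, was called as well, at 0.68 ± 0.28.

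The antiviral and interferon-linked members went in both directions. Of 8 tested, 4 had higher ratios (TRIM26, TRIM56, TRIM38 and TRIM21), 2 lower ones (TRIM22 and TRIM14), and TRIM69 and TRIM25 passed in neither. Their median ratio was 0.25, beside 0.16 for all tested members and -0.01 for all clusters, of which 31.7% were higher and 31.7% lower. A core of the interferon-stimulated response element, the letters GAAANNGAAA on either strand, was searched from 250 bases before to 50 after the start of each gene in RefSeq promoters (GRCh38.p14). It occurred in 6 of 34 matched promoters of the 46 members (17.6%), against 3.65% of 27305 promoters. Among the interferon-linked members with a promoter entry, 4 of 7 held it, namely TRIM14, TRIM21, TRIM26 and TRIM69, and TRIM2 and TRIM44 were the others. A match is only a string of letters in this window. In TRIM21 it lies after the start. The stretches of TRIM26 and TRIM14 are shown because these 2 members share the letters and moved in opposite directions, and those of TRIM69 and TRIM2 because both differed between lines. Each is written 5′ to 3′ on the strand of the gene, with the match in capitals. TRIM26 is at chr6:30213575-30213604 (minus strand) and holds another match that overlaps this one, TRIM14 at chr9:98119229-98119258 (minus strand), TRIM69 at chr15:44736456-44736485 (plus strand) and TRIM2 at chr4:153151936-153151965 (plus strand).
TRIM26: ctgatttcagTTTCCATTTCgctgcccctg
TRIM14: acggccgaggTTTCGGTTTCccttgggagc
TRIM69: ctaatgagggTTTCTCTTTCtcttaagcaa
TRIM2: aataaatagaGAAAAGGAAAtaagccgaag

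TRIM22, an interferon-induced restriction factor of retroviruses and other viruses, had the lowest ratio of the members. Its nascent RNA lay at 10.75, 11.12 and 11.81 (lowest, median and highest line) and its total RNA at 11.12, 11.38 and 11.91. Although nascent arrays were brighter at the median cluster, the nascent value of TRIM22 was below its total value in the lowest, the median and the highest line. The ratio was -1.06 ± 0.12 (SD, n = 7 lines; limma adjusted p = 6.89e-07), a fold of 0.479, and lay between -1.22 in GM10835 and -0.86 in GM07029. After a smooth dependence of the ratio on signal had been subtracted over all clusters, it was -0.64 (adjusted p = 1.7e-05).

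TRIM14, an adaptor without a RING that joins the mitochondrial antiviral signalling complex, was the next lowest of all members, at -0.67 ± 0.15 (SD, n = 7 lines; limma adjusted p = 1.47e-05). Nascent RNA was 8.31, 8.71 and 8.89 and total RNA 8.28, 8.58 and 8.96 in the lowest, median and highest line. The ratio stayed below 0 in every line, from -0.89 in GM12813 to -0.44 in GM10835. TRIM65, a ligase reported to act on the RNA sensor MDA5, was also lower, at -0.33 ± 0.13 (limma adjusted p = 0.00171), and negative in 7 of 7 lines.

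TRIM56, a ligase that restricts several RNA viruses, had a ratio of 0.72 ± 0.32 (SD, n = 7 lines; limma adjusted p = 0.000152), positive in every line and highest in GM07019 at 1.19. TRIM38, an interferon-induced regulator of innate signalling, had 0.63 ± 0.19 (adjusted p = 6.16e-05), with lines from 0.32 to 0.84. TRIM21, the cytosolic antibody receptor also known as the Ro autoantigen, was positive in 6 of 7 lines. Its nascent RNA was 8.77 in GM12815 and lay between 9.94 and 10.50 in the other lines, while total RNA ran from 8.33 to 9.39. Its ratio was 0.38 ± 0.36 (SD, n = 7 lines; limma adjusted p = 0.0142), with -0.21 in GM12815 and 0.75 in GM10835, and without GM12815 it was 0.48 (adjusted p = 0.00229). The part of that array's distance from the other lines in this value was not tested.

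TRIM25, the interferon-induced ligase that activates RIG-I, had a ratio of -0.13 ± 0.22 and TRIM69, which restricts some RNA viruses, one of 0.11 ± 0.25 (SD, n = 7 lines). Neither passed, with limma adjusted p = 0.223 for TRIM25 and 0.321 for TRIM69. Only GM10835 had a positive ratio of TRIM25, at 0.27, and its other lines lay between -0.42 and -0.03. The lines of TRIM69 fell on both sides of 0, from -0.17 to 0.45.

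The 3 chromatin readers with a PHD finger and a bromodomain had 3 different results in the main fit. TRIM33, a regulator of SMAD signalling, was higher at 0.71 ± 0.23 (SD, n = 7 lines; limma adjusted p = 4.49e-05). TRIM24, a histone reader and nuclear receptor cofactor, had 0.20 ± 0.38 and did not pass (adjusted p = 0.178), with lines from -0.33 in GM12812 to 0.76 in GM10835. TRIM28, the corepressor that KRAB zinc finger proteins bring to DNA, was lower at -0.65 ± 0.42 (adjusted p = 0.00115) and negative in 7 of 7 lines. Its nascent RNA lay at 10.04, 11.05 and 11.40 in the lowest, median and highest line, and its total RNA at 10.22, 10.84 and 11.15. The lines spread more for TRIM28 than for TRIM14 or TRIM22: GM12815 had -1.51, the other 6 lay between -0.75 and -0.19, and without GM12815 the mean was -0.50, and whichever line was left out the adjusted p was at most 0.00444. After the dependence on signal had been subtracted, TRIM28 was at -0.32 and no longer passed (adjusted p = 0.0756).

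Of 10 genes that work with TRIM28 in silencing chromatin and have a cluster of their own, 7 had a higher ratio and none a lower one, where 31.7% of all clusters were higher and 31.7% lower. Their median was 0.72. Total RNA of DAXX and ATRX, which are among the 7, was below background in 5 of 7 lines each, so that both passed the filter through nascent RNA. DAXX, a histone chaperone, had 2.56 ± 0.33 (limma adjusted p = 4.83e-07), or 2.52 with total RNA below background set to it, and ATRX, a chromatin remodeller, had 0.55 ± 0.32 (adjusted p = 0.00109), or 0.34 so set. MPHOSPH8, a subunit of the HUSH complex, had 1.36 ± 0.25, and CBX5, the heterochromatin protein HP1 alpha, had 1.12 ± 0.66 (SD, n = 7 lines each; limma adjusted p = 1.15e-06 and 0.000408). This list, like the lists below, was chosen with earlier results of these data known, and no test of it as a list was made.

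The NHL repeat members, whose C-terminal propeller binds RNA or protein, were all called, where 63.5% of all clusters were. TRIM32, a ligase mutated in a limb-girdle muscular dystrophy, was higher at 0.91 ± 0.27 (SD, n = 7 lines; limma adjusted p = 1.42e-05), with nascent RNA of 8.82, 9.53 and 9.98 and total RNA of 7.66, 7.74 and 8.20 in the lowest, median and highest line. Its ratio ran from 0.43 in GM12815 to 1.34 in GM10835. TRIM3, a growth suppressor best known from brain, was higher at 0.41 ± 0.11 (adjusted p = 0.0004) and positive in all 7 lines. Its mean total RNA of 6.44 lay close to background, with 1 of 7 lines below it, and with values below background set to it the ratio was 0.39. TRIM2, a neuronal ligase, was lower at -0.25 ± 0.18 (adjusted p = 0.0166), but its total RNA was below background in 5 of 7 lines, and without GM12814 the adjusted p was 0.0566.

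The COS box members, which bind microtubules, did not pass in the main fit: TRIM46 had -0.12, TRIM54 -0.10 and TRIM67 -0.08. All 3 lay close to background, with mean total RNA of no more than 6.83, and 5 further COS box members were below it. Total RNA was below background in 7 lines for TRIM54 and in 6 for TRIM67. TRIM46 (-0.19) and TRIM54 (-0.17) passed as lower once the dependence on signal had been subtracted (limma adjusted p = 0.0224 and 0.0337). Of the SPRY domain members, 9 of 18 tested were higher and 2 lower, with a median of 0.22. Among all clusters 31.7% were higher and 31.7% lower. Besides those already described, TRIM11, a ligase with roles in protein quality control, had 0.46 ± 0.26, TRIM27, the ligase first found fused to the RET kinase, 0.35 ± 0.22, TRIM62 0.34 ± 0.21 and TRIM35 0.32 ± 0.12 (SD, n = 7 lines each; limma adjusted p from 0.00156 to 0.00476). TRIM27 and TRIM62 were positive in 6 lines, the exception being GM12815 in both. Total RNA of TRIM62 was below background in 3 of 7 lines, and with values below background set to it the ratio was 0.28. TRIM44, which has a B-box but no RING and stabilises other TRIM proteins, was higher at 0.42 ± 0.18 (adjusted p = 0.000906).

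The remaining members passed in neither direction in the main fit. TRIM8, a RING protein that acts on cytokine and NF-kB signalling, had 0.32 ± 0.43 (SD, n = 7 lines; limma adjusted p = 0.0539), with GM10835 at 1.06 and GM12815 at -0.21, and it passed without GM12815 (0.41, adjusted p = 0.0197) or without GM07019 (0.38, adjusted p = 0.0452). TRIM37, a ligase of centrosome assembly that is mutated in mulibrey nanism, had -0.21 ± 0.30 (adjusted p = 0.0963) and passed without GM10835 (-0.27, adjusted p = 0.0388). TRIM17, TRIM68, TRIM15, TRIM72, TRIM31 and TRIM47 had means between -0.12 and 0.12. After the dependence on signal had been subtracted, TRIM37 (-0.27) and TRIM47 (-0.20) passed as lower (limma adjusted p = 0.0173 and 0.0195). TRIM17 lies next to TRIM11 on chromosome 1 and TRIM47 next to TRIM65 on chromosome 17, in both cases with 1 of the neighbours called and the other not. Across the 34 tested members, which share the same arrays, the Spearman correlation of the mean ratio with the RefSeq length of the gene was 0.027.

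Genes of the pathways in which these proteins act were read from the same fit, where 31.7% of all clusters were higher and 31.7% lower. Of 15 genes of RNA sensing and interferon signalling, 2 had higher ratios and 4 lower ones, with a median of -0.14. The RNA sensor gene IFIH1 was higher at 1.00 ± 0.30, and the receptor kinases JAK1 and TYK2 were lower at -0.70 ± 0.11 and -0.65 ± 0.20 (SD, n = 7 lines each; limma adjusted p = 1.07e-05, 5.68e-06 and 3.56e-05). Of 8 enzymes that charge or conjugate ubiquitin, SUMO or a related modifier, 3 were higher and 5 lower, with a median of -0.64. UBA1, the main ubiquitin activating enzyme, was at -1.85 ± 0.17, UBE2E1 at -1.57 ± 0.31 and UBE2L6, an interferon-induced conjugating enzyme, at -1.22 ± 0.26 (limma adjusted p = 4.83e-07, 8.46e-07 and 1.42e-06). Of the tripartite motif relatives that carry other names, 4 of 9 were tested and 2 were higher: PML, the scaffold of nuclear bodies, at 0.74 ± 0.28 and BSPRY at 0.61 ± 0.24 (adjusted p = 7.2e-05 and 0.000155). Total RNA of BSPRY was below background in 5 of 7 lines, and with those values set to the background its ratio was 0.51.

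The lines did not contribute evenly. GM10835 had the highest ratio for 17 of the 34 tested members (50%), whereas it was highest for 24.6% of all clusters, and GM12815 had the lowest for 11 members (32.4%), whereas it was lowest for 18.3% of all clusters. The median ratio of the members was 0.42 in GM10835, 0.28 in GM12813, 0.25 in GM07029, 0.20 in GM07019, 0.18 in GM12814, 0.16 in GM12812 and -0.02 in GM12815. GM12815 rests on 1 culture, and its nascent array was the one least like the others. The order of the lines was not tested.

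Differences between lines were tested among GM12813, GM10835 and GM07029, which have 3 cultures each, with limma's moderated F test. Nascent RNA differed for 20 of 34 members (58.8%), with 56.7% of all clusters called. Total RNA differed for 14 members (41.2%), with 56.3% of all clusters called. The ratio differed for 7 members (20.6%), with 25.4% of all clusters called. Of the members called in nascent RNA 45% were also called in total RNA, and 64.3% the other way round, with 9 in common. The same overlap over all clusters was not counted, so this split is a description and not a trait of the family. Nothing in the labels says how the cultures were separated beyond their being independent, and fewer cells with a transcript cannot be told apart from less transcript per cell in such bulk RNA. With 1 culture left out, the count for the ratio lay between 1, without GM10835 replicate 3, and 10, without GM07029 replicate 2. It was 3 or 4 where any 1 other culture of GM10835 or of GM12813 was left out. The count for total RNA was 9 without GM10835 replicate 1 and 8 without its replicate 2. GM10835 was highest in nascent RNA for 14 of the 20 called members, and it was so for 69% of all clusters called. It was lowest in total RNA for 8 of the 14 called members, and for 29.3% of all clusters called, a difference that was not tested.

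**Figure D3:**
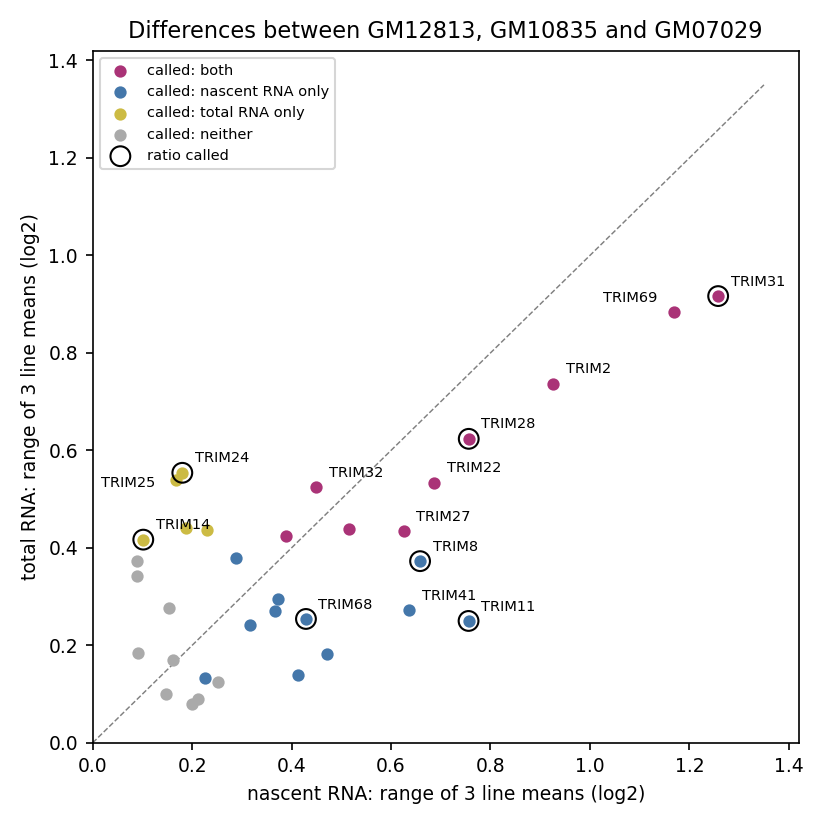
Range of the means of GM12813, GM10835 and GM07029 in nascent RNA (x axis, log2) and in total RNA (y axis, log2) for the 34 TRIM members, coloured by the fraction in which the lines differed and ringed where the nascent/total ratio differed. TRIM69 and TRIM28 differ in both fractions, as do TRIM31 and TRIM2, whose ranges rest partly on signal below background; TRIM11 and TRIM8 lie far below the dashed line of equal ranges, and TRIM24, TRIM25 and TRIM14 lie above it.

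TRIM31, a RING ligase that acts on the antiviral adaptor MAVS, was called in both fractions, with most values of GM10835 and GM07029 near or below background. Its nascent RNA was 7.48, 7.54 and 7.66 in the 3 cultures of GM12813, 6.12, 6.39 and 6.39 in GM10835, and 6.44, 6.61 and 6.71 in GM07029. Its total RNA was 6.85, 6.61 and 6.70 in GM12813, 5.69, 5.89 and 6.02 in GM10835, and 5.77, 5.89 and 5.75 in GM07029. GM12813 stood above both other lines with no overlap, and total RNA of the other lines was below background. All values of GM10835 were below background. With those values set to the background, nascent RNA was 2.23-fold and total RNA at least 1.25-fold higher in GM12813 than in GM10835. The nascent fold is not a lower bound, because the background was not set from nascent arrays alone. The measured log2 differences were 1.26 ± 0.11 in nascent RNA and 0.85 ± 0.12 in total RNA (SE; limma adjusted p = 7.77e-06 and 0.000289).

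TRIM69 was highest in GM10835 in both fractions. Nascent RNA was 8.08, 7.91 and 7.83 in GM12813, 8.77, 8.67 and 8.70 in GM10835, and 7.87, 7.44 and 7.32 in GM07029. Total RNA was 7.04, 6.87 and 6.66 in GM12813, 7.52, 7.31 and 7.48 in GM10835, and 6.52, 6.40 and 6.74 in GM07029. GM10835 and GM07029 did not overlap in either fraction, and the difference between them was 2.25-fold in nascent RNA and 1.85-fold in total RNA (limma adjusted p = 2.33e-05 and 0.000236). Total RNA of GM07029 lay close to background, with replicate 2 just below it, which limits how its fold can be read. The ratio did not pass between lines (range 0.22, adjusted p = 0.49).

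TRIM2 was lowest in GM10835. Nascent RNA was 7.13, 7.10 and 7.15 in GM12813, 6.12, 6.22 and 6.25 in GM10835, and 7.05, 6.83 and 6.72 in GM07029. Total RNA was 6.53, 6.39 and 6.37 in GM12813, 5.76, 5.71 and 5.60 in GM10835, and 6.35, 6.06 and 6.27 in GM07029. No culture of GM10835 reached any culture of the other lines, and all its values were below background. With the values of GM10835 set to the background, nascent RNA was 1.65-fold higher in GM12813 than in GM10835, which is not a lower bound either. The measured log2 difference was 0.93 ± 0.10 (SE; limma adjusted p = 3.43e-05). Of all total RNA values only the 6.53 of GM12813 replicate 1 was above background, so no fold is given there (measured log2 difference 0.74 ± 0.12, adjusted p = 0.000592).

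TRIM28 differed in nascent RNA, in total RNA and in the ratio. Nascent RNA was 10.98, 11.02 and 11.05 in GM12813, 11.53, 11.36 and 11.24 in GM10835, and 10.66, 10.61 and 10.59 in GM07029. Total RNA was 10.88, 10.83 and 10.82 in GM12813, 10.82, 10.80 and 10.59 in GM10835, and 10.16, 10.20 and 10.30 in GM07029. GM07029 was lowest in both fractions without overlap, and in nascent RNA GM10835 also stood above GM12813. The ratio was -0.64, -0.59 and -0.65 in GM12813, -0.11, -0.29 and -0.17 in GM10835, and -0.30, -0.36 and -0.43 in GM07029, and was lower in GM12813 than in GM10835 by a log2 difference of -0.44 ± 0.10 (SE; limma adjusted p = 0.0107). This call was lost in 5 of the 9 fits that left out 1 culture, those without GM10835 replicate 1 or 3 or any replicate of GM12813, with adjusted p up to 0.086.

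TRIM22 was highest in GM07029. Nascent RNA was 11.18, 11.20 and 11.01 in GM12813, 11.04, 11.11 and 11.20 in GM10835, and 11.89, 11.64 and 11.88 in GM07029. Total RNA was 11.47, 11.46 and 11.19 in GM12813, 11.46, 11.40 and 11.66 in GM10835, and 11.68, 11.98 and 12.06 in GM07029. Both fractions separated GM07029 from the other lines, with log2 differences of -0.69 in nascent RNA and -0.40 in total RNA for GM10835 minus GM07029 (limma adjusted p = 2.99e-05 and 0.0188). The ratio of TRIM22 did not pass between lines (range 0.35, adjusted p = 0.144).

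In 11 members only nascent RNA was called between lines, and the ratio was called for 3 of them, TRIM11, TRIM68 and TRIM8. TRIM11 had nascent RNA of 9.06, 9.11 and 9.17 in GM12813, 9.75, 9.67 and 9.69 in GM10835, and 9.16, 9.01 and 8.67 in GM07029. Its total RNA was 8.19, 7.98 and 7.94 in GM12813, 7.84, 7.90 and 7.88 in GM10835, and 7.94, 7.67 and 7.75 in GM07029. GM10835 was thus the highest line in nascent RNA with no overlap, while total RNA did not pass between lines (adjusted p = 0.141). The ratio was 0.13, 0.34 and 0.35 in GM12813, 0.92 to 1.09 in GM10835, and 0.21 to 0.57 in GM07029 (range 0.73; limma adjusted p = 0.00516). TRIM11 was the only member whose ratio call was kept in all 9 fits with 1 culture left out, with adjusted p between 0.00405 and 0.0259.

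TRIM68, a ligase and androgen receptor cofactor, had a ratio of 0.37, 0.34 and 0.41 in GM12813, 0.83, 0.85 and 0.84 in GM10835, and 0.45, 0.21 and 0.00 in GM07029 (range 0.62; limma adjusted p = 0.0118). Its nascent RNA was 10.16, 10.07 and 10.12 in GM10835, above all cultures of the other lines. Its total RNA did not pass (adjusted p = 0.178). The ratio call was lost without GM10835 replicate 3 (adjusted p = 0.0511).

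TRIM8 had a ratio of 0.38, 0.48 and 0.74 in GM12813, 1.04, 1.06 and 1.10 in GM10835, and 0.68, -0.03 and 0.09 in GM07029, the widest range among the members (0.82; limma adjusted p = 0.0179). Nascent RNA averaged 9.75 ± 0.01 in GM12813, 9.94 ± 0.08 in GM10835 and 9.29 ± 0.27 in GM07029 (SD, n = 3 each). Replicate 1 of GM07029 was the high one of its line in nascent RNA, at 9.59 against 9.10 and 9.17. The ratio call was lost without GM10835 replicate 2 or 3, with adjusted p up to 0.0628.

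**Figure D4:**
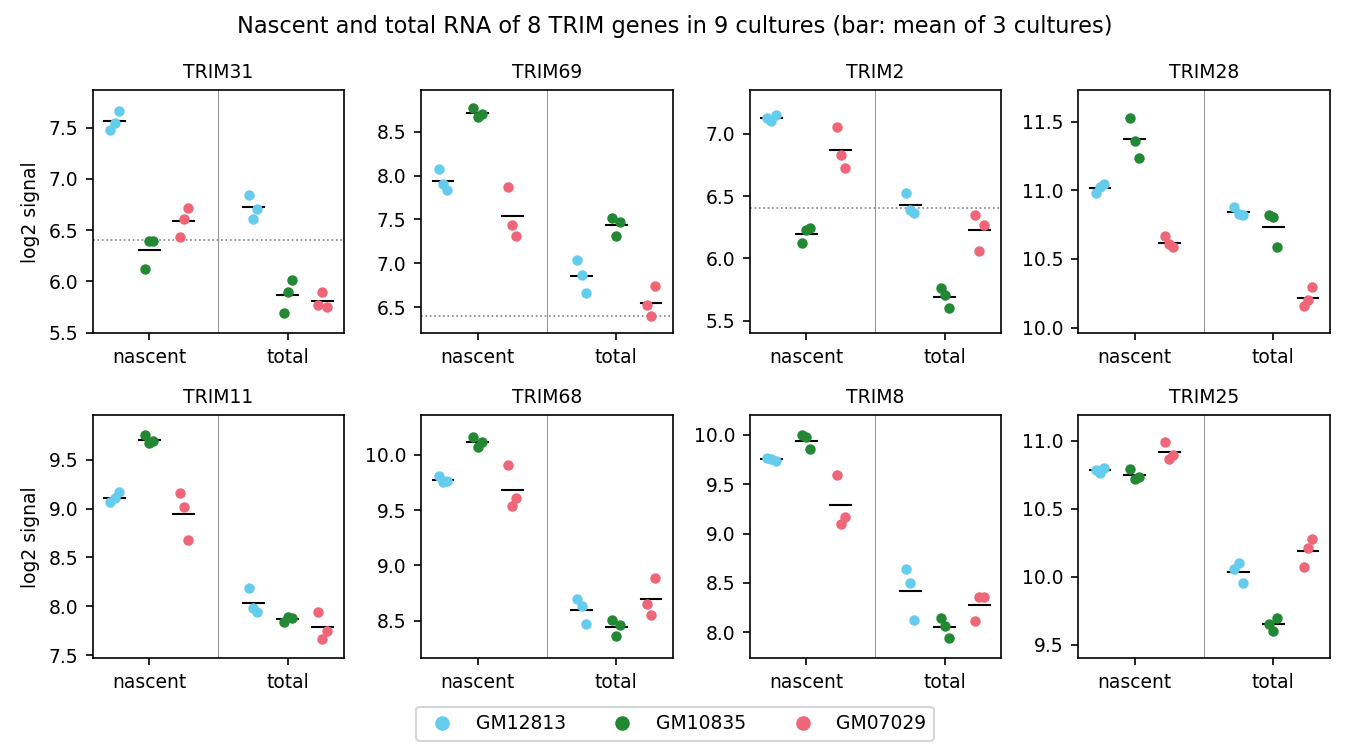
Log2 signal of 8 TRIM members in the 3 cultures each of GM12813, GM10835 and GM07029, nascent RNA on the left and total RNA on the right of each panel; bars are means of 3 cultures and the dotted line is the background of 6.40. TRIM69 and TRIM28 separate lines in both fractions, TRIM31 and TRIM2 do so with several values below the dotted line, TRIM11, TRIM68 and TRIM8 in nascent RNA, and TRIM25 in total RNA.

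In 5 members only total RNA was called: TRIM25, TRIM14, TRIM24, TRIM38 and TRIM37. TRIM25 total RNA was 10.06, 10.10 and 9.95 in GM12813, 9.65, 9.60 and 9.70 in GM10835, and 10.07, 10.21 and 10.28 in GM07029. GM10835 was lower than both other lines without overlap, with a log2 difference of -0.54 ± 0.10 for GM10835 minus GM07029 (SE; limma adjusted p = 0.00102). Nascent RNA of TRIM25 was 10.78, 10.76 and 10.80 in GM12813, 10.79, 10.72 and 10.73 in GM10835, and 10.99, 10.86 and 10.90 in GM07029, a range of 0.17 (adjusted p = 0.0525). The ratio of TRIM25 did not pass (range 0.32, adjusted p = 0.0614).

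The ratio was called for TRIM14 and TRIM24 among these 5. TRIM14 had a ratio of -0.95, -0.88 and -0.83 in GM12813, -0.39, -0.54 and -0.40 in GM10835, and -0.55, -0.81 and -0.72 in GM07029 (range 0.44; limma adjusted p = 0.0327). Its total RNA was 8.81, 8.73 and 8.55 in GM12813, 8.29, 8.34 and 8.21 in GM10835, and 8.60, 8.64 and 8.69 in GM07029, lowest in GM10835 without overlap, a call that was lost without GM10835 replicate 3 (adjusted p = 0.0533). TRIM24 had a ratio of 0.41, 0.50 and 0.66 in GM12813, 0.60, 0.93 and 0.74 in GM10835, and 0.25, 0.41 and 0.24 in GM07029 (range 0.46; limma adjusted p = 0.0497), and its call in total RNA was lost without GM10835 replicate 2 (adjusted p = 0.0669). Both ratio calls were lost in most fits with 1 culture left out: TRIM14 kept its call in 3 of 9, and lost it without any culture of GM10835 or GM12813, with adjusted p up to 0.116. TRIM24 kept its call in 1 of 9, that without GM07029 replicate 2, with adjusted p up to 0.151. The ratio of TRIM31 was also called (range 0.43; limma adjusted p = 0.039), but both fractions of GM10835 and total RNA of GM07029 were below background, so its size cannot be read, and it was not tested where both fractions had to be above background. It kept its call in 4 of 9 such fits, losing it without any culture of GM10835 or without replicate 2 or 3 of GM12813, with adjusted p up to 0.142.

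TRIM32, TRIM27, TRIM44 and TRIM52 were also called in both fractions. TRIM32 was highest in GM07029, at means of 9.53, 9.83 and 9.98 in nascent RNA and 7.82, 7.66 and 8.18 in total RNA of GM12813, GM10835 and GM07029 in that order. TRIM27 was highest in GM10835, at 9.83, 10.20 and 9.57 in nascent RNA and 8.54, 8.78 and 8.35 in total RNA in the same order of lines. TRIM44 was lowest in GM10835, at 10.21, 9.99 and 10.38 in nascent RNA and 9.11, 8.94 and 9.37 in total RNA. TRIM52 was highest in GM10835, at 8.99, 9.26 and 8.75 in nascent RNA and 7.20, 7.64 and 7.35 in total RNA. Its second cluster passed in neither nascent RNA (adjusted p = 0.0715) nor total RNA (0.157). In the ratio that second cluster did pass by the moderated F test (adjusted p = 0.0293), while the first did not (0.223). With both clusters averaged the call in total RNA was lost. These 4 members were called in nascent RNA with limma adjusted p from 0.000106 to 0.00767 and in total RNA from 0.00727 to 0.0394. In total RNA, calls were lost in part of the fits with 1 culture left out for TRIM27 (without any culture of GM10835, adjusted p up to 0.0622), TRIM44 (without GM07029 replicate 2 or 3 or GM10835 replicate 1 or 2, up to 0.0754) and TRIM52 (without any culture of GM10835 or replicate 2 or 3 of GM12813, up to 0.16).

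Among members called in nascent RNA alone, TRIM41 had the widest range after TRIM11 and TRIM8, 0.64, with means of 7.96 ± 0.03 in GM12813, 8.51 ± 0.04 in GM10835 and 7.87 ± 0.12 in GM07029 (SD, n = 3 each; limma adjusted p = 0.000129). GM10835 lay above both other lines without overlap. TRIM26 had the same order, at means of 10.14, 10.46 and 9.99 in GM12813, GM10835 and GM07029 (range 0.47; adjusted p = 0.000417). TRIM62, TRIM65, TRIM56, TRIM21, TRIM4 and TRIM33 had ranges between 0.23 and 0.41, and GM10835 was the highest line for all of these but TRIM33. Of the 20 calls in nascent RNA, 15 were kept in all 9 fits with 1 culture left out. Those lost in some were TRIM56 (without GM10835 replicate 3, adjusted p = 0.0588), TRIM65 (without GM10835 replicate 2, 0.0573), TRIM33 (without GM10835 replicate 1 or GM12813 replicate 2, up to 0.066), TRIM21 (kept only without GM07029 replicate 1 or 2, up to 0.123) and TRIM4 (kept only without replicate 1 of GM07029 or of GM10835, up to 0.133).

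9 members were called between these 3 lines in no measure: TRIM3, TRIM15, TRIM17, TRIM35, TRIM46, TRIM47, TRIM54, TRIM67 and TRIM72. TRIM38 and TRIM37 were called in total RNA only, with ranges of 0.44 each, and both calls were kept in 5 of 9 fits with 1 culture left out. They were lost for TRIM38 without GM07029 replicate 1 or 3 or GM10835 replicate 1 or 2 (adjusted p up to 0.119), and for TRIM37 without GM07029 replicate 3 or any culture of GM10835 (up to 0.0971).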

How the data were processed

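The authors deposited log2 signals, 1 per transcript cluster and array, from a human exon array. Per the submitters' processing notes they were made with Affymetrix Power Tools on genome build hg18; which summary and normalization methods were used is not given in the sources used here. Symbols came from the platform annotation: 14405 clusters had 1 symbol, 2365 several and 5018 none. Technical duplicates were averaged, and the nascent minus total log2 value of each culture was centred on its median over the 14167 clusters above background (mean over 32 arrays above the 95th percentile of olfactory receptors). limma 3.58.1 (R 4.3.3; lmFit and eBayes with trend, two-sided) tested 1 value per line against 0 over 7 lines, and 9 cultures of 3 lines by a moderated F test with its pairwise contrasts; p was adjusted by Benjamini-Hochberg over all clusters. Members and gene lists were chosen with earlier results of these data known. All members are accounted for. Those given in full were the 10 highest and 10 lowest ratios, up to 12 members called between lines in each measure, and 9 preset names; of each partner list, the 3 genes with the largest absolute ratio past the threshold were named. The number of arrays limits precision. The steps were tested on simulated data. Over 7 lines, 50% of ratio changes of 0.5 log2 and 91% of those of 1 log2 were recovered. Between 3 lines, 14% and 79% were. A ratio that did not pass is therefore not shown to be unchanged. Figures used matplotlib 3.10.9.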

Additional observations from a re-analysis of the deposited data

Results flagged for a closer look

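Each of the 34 members tested was examined for a line that lay apart from the other 6, by the gap to its nearest neighbour as a share of the whole range, with a limit of 0.568. Chance flags about 1 in 20 groups; here 11 of 102 were flagged (10.8%), and over all clusters the share was 4.77% for the ratio, 6.95% for nascent RNA and 9.39% for total RNA. In the ratio, GM10835 lay apart as the highest line for TRIM11 (1.00, next 0.46) and as the lowest for TRIM31 (-0.396, next -0.07; both fractions of TRIM31 in GM10835 were below background, so the size of that value cannot be read), and GM12815 as the lowest for TRIM28 (-1.51, next -0.75). In nascent RNA, GM12815 was apart as the lowest for TRIM21 (8.77) and TRIM68 (8.71), and GM07029 as the lowest for TRIM15 (6.86) and the highest for TRIM22 (11.8). In total RNA, GM12815 was lowest for TRIM3 (6.26), GM12812 lowest for TRIM54 (5.87), GM07029 highest for TRIM33 (8.98) and GM07019 highest for TRIM8 (8.98). TRIM21 and TRIM68 thus shared a low nascent value in GM12815, the line whose nascent array was least like the others, and the part of that array in their values was not tested.

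The nascent/total ratio differed between GM12813, GM10835 and GM07029 by the moderated F test for 7 members, with a range of line means of 0.819 for TRIM8, 0.727 for TRIM11, 0.617 for TRIM68, 0.46 for TRIM24, 0.444 for TRIM14, 0.436 for TRIM28 and 0.435 for TRIM31. GM10835 had the highest ratio for 6 of them and the lowest for TRIM31, whose signal in GM10835 was below background in both fractions. The share of all clusters called for the ratio in which GM10835 was highest was not counted. Among all clusters called, GM10835 was highest for 69% in nascent RNA and 51.2% in total RNA.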

How the results depend on the processing

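Without centring, the median cluster itself lay at 0.77, 93.9% of all calls were higher rather than 50%, and 32 members were called, 31 higher and 1 lower (TRIM22), so every ratio here is relative to the median cluster. In that setting the sign turned for TRIM14 (0.11), TRIM2 (0.52), TRIM25 (0.65), TRIM28 (0.13), TRIM31 (0.73), TRIM37 (0.56), TRIM46 (0.65), TRIM47 (0.65), TRIM54 (0.68), TRIM65 (0.44), TRIM67 (0.69) and TRIM72 (0.74). After subtraction of a smooth dependence on signal, 8 members were lower instead of 5. TRIM37, TRIM46, TRIM47 and TRIM54 then passed as lower and TRIM24 as higher, while TRIM28 no longer passed. Under the other settings, including quantile normalization, no filter, 13 cultures with line as a random block and each line left out in turn, the 3 counts over 7 lines and that of the partner genes stayed within 1.5 times of their values. Between lines, the count for the ratio was 3 without a filter and 1 to 10 with 1 culture left out, lowest without GM10835 replicate 3. For total RNA it was 9 with only the first array of each culture and 8 to 16 with 1 culture left out, lowest without GM10835 replicate 2, and for nascent RNA 17 to 22. Nothing in the labels says whether cultures with the same replicate number were handled together. Correlations of same-numbered deviations from the line means ran from -0.459 to 0.392 in nascent RNA. They ran from -0.432 to 0.114 in total RNA and from -0.433 to 0.197 in the ratio. For GM07029 and GM12813 in nascent RNA they were 0.392, -0.2 and 0.35 for replicates 1, 2 and 3. These values cannot decide whether some cultures were paired, and the main fit had no replicate block. With a replicate block the counts were 18 in nascent RNA, 12 in total RNA and 3 in the ratio, against 20, 14 and 7 without it. An alternative chosen after seeing the data, the second total RNA array alone for GM12813 replicate 3, gave 8 members for the ratio and 13 for total RNA. Closeness to background limits what can be said of TRIM4, TRIM15, TRIM54, TRIM67, TRIM31 and TRIM2. The same holds for TRIM62 and TRIM72, whose total RNA was below background in 3 of 7 lines each, and for TRIM3 and TRIM69, with 1 of 7 lines each. TRIM62 was not tested where both fractions had to be above background.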
